A study of Mus musculus with 9 samples.

Results

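The 10 genes described here are widely used to recognise resident macrophages: C1qa, C1qb, C1qc, Apoe, Vcam1, Slc40a1, Spic, Mrc1, Cd163 and Axl. They were taken by gene symbol from 55291 symbols counted in each library, and all 10 were found and were among the 15066 genes tested. The libraries hold RNA of acute myeloid leukaemia (AML) cells of the mouse, taken from lungs (3 libraries) or bone marrow (3 libraries) of wild-type recipients, or from in vitro culture (3 libraries). The leukaemia cells of all 3 groups are Trp53(R172H/Δ): 1 allele of the gene for p53 carries the substitution R172H, and the other is labelled Δ. Both alleles are thus shared by the tissue and culture groups. The sources used here do not give the age, sex or strain of the mice, the animals per library or how leukaemia cells were separated from host cells. The series title names tissue microenvironments in AML as the subject, and each tissue against culture and lung against bone marrow are the comparisons this design implies.

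Resident macrophages live long-term in tissues, where they clear dying cells, recycle iron from red cells and secrete complement. In bone marrow, macrophages carrying VCAM1 sit at the centre of erythroblastic islands and depend, like the red pulp macrophages of the spleen, on the transcription factor SPI-C. Lung holds alveolar macrophages in the airspace and interstitial macrophages in the tissue, of which the interstitial ones are known for complement C1q, mannose receptor and CD163. Several of these genes are also used by other cells: ferroportin by erythroid precursors, VCAM1 by endothelium and stroma, and AXL and apolipoprotein E by many cell types.

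Libraries held between 27485111 and 38761363 counted reads, and 1 read was worth between 0.0249 and 0.0371 CPM (a gene's reads divided by the library's reads and scaled up by a fixed factor, after TMM correction for composition). Trp53 lay between 293 and 381 CPM in all 9 libraries. The labelled cell type was checked against lineage genes. Kit, the stem cell factor receptor of early blood cells, lay between 506 and 1214 CPM over the 9 libraries, and the erythroid genes Gata1 and Klf1 between 286 and 389 CPM and between 261 and 334 CPM. The myeloid genes Itgam and Mpo had at most 0.0615 and 0.0742 CPM in any culture library, so both were near absent from the cultured cells. Bone marrow replicate 3 stood apart in markers of other blood cells. The summed level of 12 neutrophil genes, none of which was without reads in any group, was 88.1, 12.4 and 12.5 CPM in lung replicates 1 to 3, 342, 603 and 2132 CPM in bone marrow and between 1.39 and 2.65 CPM in culture. Calls for the 10 genes that change without that library are given both ways.

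The C1q genes encode the A, B and C chains that assemble into the recognition unit of the first complement component. They lie side by side on chromosome 4 within 18675 bases, from 136880129 to 136898803 (GRCm38, which is mm10), in the order C1qb, C1qc, C1qa and all on the minus strand. Promoter sequences of 7 of the 10 genes (C1qb, C1qc, Apoe, Spic, Mrc1, Cd163 and Axl) were matched by symbol in RefSeq's GRCm38.p6 annotation. Those of C1qb, C1qc and Spic are shown because these genes had at most 2 reads in the 3 culture libraries together. Each runs 5′ to 3′ from 250 bases before to 50 bases after the start of the transcript, and capitals mark every GAGGAA or its reverse complement TTCCTC (the core bound by PU.1, and by its relative SPI-C) and every TGCTGA or TCAGCA (a core bound by MAF factors).
C1qb promoter, chr4:136886151-136886450, minus strand: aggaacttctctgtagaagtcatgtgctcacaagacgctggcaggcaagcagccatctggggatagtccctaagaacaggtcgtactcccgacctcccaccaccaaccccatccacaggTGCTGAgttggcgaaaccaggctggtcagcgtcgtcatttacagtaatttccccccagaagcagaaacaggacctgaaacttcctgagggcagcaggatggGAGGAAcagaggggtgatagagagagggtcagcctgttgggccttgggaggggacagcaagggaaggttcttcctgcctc
C1qc promoter, chr4:136892865-136893164, minus strand: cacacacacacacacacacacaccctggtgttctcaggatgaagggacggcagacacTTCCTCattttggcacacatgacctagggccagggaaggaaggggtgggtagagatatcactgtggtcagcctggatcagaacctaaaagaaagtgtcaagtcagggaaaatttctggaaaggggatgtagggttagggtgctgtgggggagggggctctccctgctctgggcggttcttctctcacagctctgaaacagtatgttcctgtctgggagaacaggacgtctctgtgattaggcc
Spic promoter, chr10:88682974-88683273, minus strand: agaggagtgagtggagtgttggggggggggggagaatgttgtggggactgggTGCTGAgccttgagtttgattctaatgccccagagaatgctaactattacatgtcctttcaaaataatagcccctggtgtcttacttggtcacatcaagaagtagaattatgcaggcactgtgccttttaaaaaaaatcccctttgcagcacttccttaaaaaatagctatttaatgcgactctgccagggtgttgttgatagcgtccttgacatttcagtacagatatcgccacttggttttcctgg
The C1qb window held 1 PU.1 core and 1 MAF core, the C1qc window 1 PU.1 core and no MAF core, and the Spic window 1 MAF core and no PU.1 core. Among the other matched genes, Mrc1 held 3 PU.1 cores and Axl 1, Cd163 held neither core, and 2 of the 3 Apoe windows held at least 1 PU.1 core. Of 32851 mouse promoter windows of the same length, 28.3% held at least 1 PU.1 core, 19.5% at least 1 MAF core and 5.36% both. The letters are common, and a match is a description of the sequence and not evidence of binding.

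The 10 genes did not follow 1 pattern, and the level in culture divided them. C1qa, C1qb, C1qc, Vcam1 and Spic had 5 reads in all in the 3 culture libraries, against 215 in the lung libraries and 1151 in the bone marrow libraries. Apoe, Slc40a1, Mrc1, Cd163 and Axl were all read in culture, with between 74 reads for Cd163 and 20702 reads for Slc40a1 over the 3 libraries. This division was made after the values were seen. In lung against bone marrow 5 of the 10 genes were lower and 0 higher at an adjusted p under 0.05 (edgeR's quasi-likelihood test, Benjamini-Hochberg over all genes), beside 11.1% lower and 14.2% higher among all genes tested. Either way, 25.3% of all genes passed there. In bone marrow against culture 7 were higher and 1 lower, beside 30.7% and 29.8% of all genes (60.5% either way). In lung against culture 7 were higher and 3 lower, beside 27.9% and 27% of all genes (54.9% either way). The same members had libraries that did not overlap between the groups. Among all genes the libraries did not overlap for 18.5% higher and 18.1% lower in lung against bone marrow (36.6% either way), for 34.3% and 32.9% in bone marrow against culture (67.2%), and for 34% and 32.9% in lung against culture (66.8%). The genes with 3 or fewer culture reads could pass the filter on low counts only through the tissue libraries where they are high, so these shares describe the genes and give no support of their own. Median log2 changes over the 10 genes were -1.05 in lung against bone marrow, 4.41 in bone marrow against culture and 2.86 in lung against culture, beside -0.01, 0.05 and 0.02 over all genes. With the 3 genes without a culture read set to their lower bound, the medians against culture were 3.30 in bone marrow and 2.27 in lung. In these bulk libraries, fewer cells of a type and less RNA per cell cannot be told apart, nor can RNA of host cells and RNA of the leukaemia cells.

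**Figure D1:**
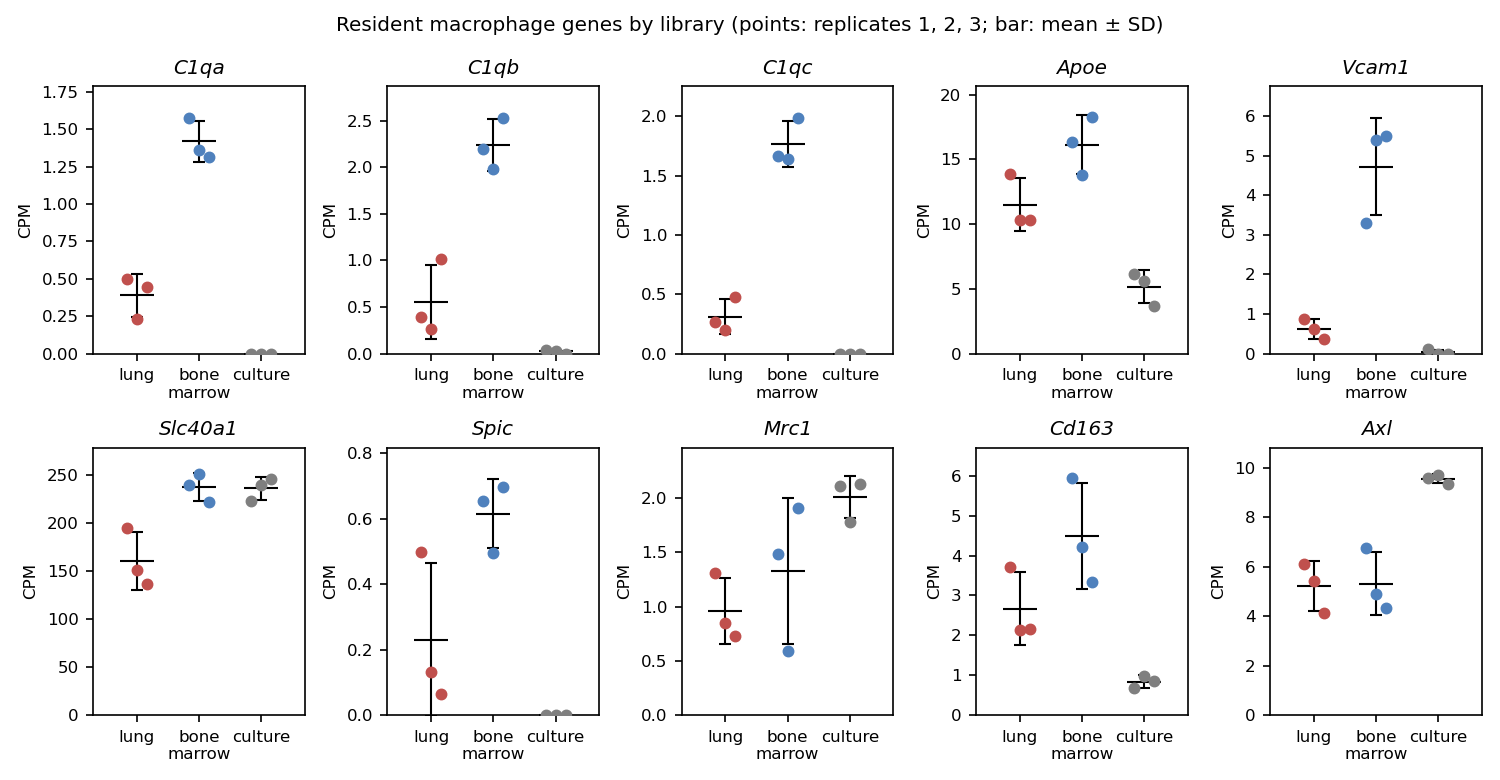
CPM of each of the 10 genes (vertical axes, linear, each with its own scale) in the lung, bone marrow and culture libraries; points are replicates 1, 2 and 3 from left to right, and the bar and whiskers are the mean ± SD (n = 3). The C1q genes, Vcam1 and Spic sit at or near 0 in culture, whereas Axl and Mrc1 have their highest group mean there and Slc40a1 lies above 130 CPM in every library.

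The C1q genes were read in all 6 tissue libraries and were lower in lung than in bone marrow. C1qa had 0.498, 0.228 and 0.443 CPM in lung replicates 1 to 3, against 1.58, 1.36 and 1.32 CPM in bone marrow replicates 1 to 3. C1qb had 0.393, 0.261 and 1.01 CPM in lung, against 2.20, 1.98 and 2.54 CPM in bone marrow. C1qc had 0.262, 0.196 and 0.475 CPM in lung, against 1.67, 1.64 and 1.99 CPM in bone marrow. For each chain every lung library lay below every bone marrow library, and lung replicate 2 was the lowest of the 6. The log2 changes in lung against bone marrow were -1.84 ± 0.38 for C1qa, -2.01 ± 0.43 for C1qb and -2.50 ± 0.39 for C1qc (SE; adjusted p = 0.00547, 0.00504 and 0.00127), lower in 3 of 3 lung libraries each time. These levels are low: the values rest on 40, 55 and 31 reads in the lung libraries and on 150, 240 and 189 in bone marrow.

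In culture, C1qa and C1qc had no read and C1qb 2. A floor of 3 reads over the group, which 0 reads allow, corresponded to 0.0342 CPM in culture. Against that floor C1qa was at least 11.6-fold higher in lung and at least 41.3-fold higher in bone marrow, and C1qc at least 9.01-fold and 52.0-fold higher. C1qb was higher by a ratio of 24.0 in lung (95% exact interval 6.33 to 203) and of 99.1 in bone marrow (27.1 to 823). Such intervals and floors cover counting error only, since amplified reads are not independent molecules. Both tissues passed the test against culture for each chain (adjusted p between 1.74e-06 and 0.000253).

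The share of each chain among the C1q reads was also compared between the tissues. C1qb gave 43.7% of the 126 C1q reads in lung (95% Clopper-Pearson interval 34.8% to 52.8%) and 41.5% of the 579 in bone marrow (37.4% to 45.6%). C1qa gave 31.7% in lung (23.7% to 40.6%) and 25.9% in bone marrow (22.4% to 29.7%). C1qc gave 24.6% in lung (17.4% to 33.1%) and 32.6% in bone marrow (28.8% to 36.6%). These intervals pool the libraries of a tissue and leave out the spread between them, and the difference in shares was not tested. By library, the C1qa share ran from 23.0% to 43.2% in lung and from 22.6% to 29.0% in bone marrow. Divided by exon length, mean levels were 0.375, 0.510 and 0.161 CPM per kilobase for C1qa, C1qb and C1qc in lung and 1.36, 2.06 and 0.914 CPM per kilobase in bone marrow, and C1qc was lowest in both tissues. The higher mean of C1qb over C1qa in lung rests on replicate 3, and in lung replicate 1 C1qa was above C1qb.

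SPI-C, encoded by Spic on chromosome 10 (88674772 to 88685015), is an ETS-family transcription factor that red pulp macrophages need. Spic had 0.498, 0.131 and 0.0633 CPM in lung, against 0.654, 0.496 and 0.696 CPM in bone marrow. The groups overlapped, because lung replicate 1 (19 reads) reached the level of bone marrow replicate 2 (16 reads) while lung replicates 2 and 3 had 4 and 2 reads. The log2 change of -1.35 ± 0.60 in lung against bone marrow did not pass (adjusted p = 0.12), and without lung replicate 1 it was -2.63 and passed (adjusted p = 0.0161). It also passed with the replicate block in the 6 tissue libraries alone (-1.57, adjusted p = 0.0285) and with limma-voom (-1.73, adjusted p = 0.0412), but not with the block over all 9 libraries. No read fell on Spic in culture, and it was at least 7.27-fold higher in lung and at least 18.2-fold higher in bone marrow (adjusted p = 0.004 and 0.00033).

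VCAM1, an adhesion molecule that holds blood cells through integrin VLA-4, showed the greatest log2 difference between the tissues among the 10 genes. Vcam1 (chromosome 3, 116109949 to 116129688) had 0.864, 0.620 and 0.380 CPM in lung, against 3.30, 5.39 and 5.49 CPM in bone marrow. Every lung library lay below every bone marrow library, and the log2 change was -2.91 ± 0.43 (adjusted p = 0.000563). Against the 3 reads in culture, all from replicate 1, it was higher by a ratio of 18.6 in lung (6.09 to 92.6) and of 139 in bone marrow (47.4 to 677). The counts are marked as unstranded, and the antisense gene Gm43109 that overlaps Vcam1 had at most 0.0310 CPM in any library. The integrin chains that bind VCAM1 were abundant in every group: Itga4 averaged 174 ± 50.3 CPM in lung, 188 ± 32.5 CPM in bone marrow and 381 ± 16.3 CPM in culture (SD, n = 3 each).

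Apolipoprotein E carries lipid out of macrophages, and Apoe (chromosome 7, 19696109 to 19699188) was higher in both tissues than in culture. It had 13.9, 10.3 and 10.3 CPM in lung, 16.3, 13.8 and 18.3 CPM in bone marrow and 6.16, 5.63 and 3.69 CPM in culture. Every tissue library lay above every culture library, with log2 changes of 1.16 ± 0.20 in lung and 1.64 ± 0.20 in bone marrow (adjusted p = 0.000244 and 9.36e-06). Between the tissues the highest lung library and the lowest bone marrow library overlapped. The difference there was -0.49 ± 0.19 on the log2 scale and did not pass (adjusted p = 0.0738), although it did with the replicate block (adjusted p = 0.0371) and without lung replicate 1 (0.0425) or culture replicate 3 (0.0484).

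CD163 is the scavenger receptor that takes up haemoglobin bound to haptoglobin. Cd163 (chromosome 6, 124304656 to 124330527) had 3.72, 2.12 and 2.15 CPM in lung, 5.95, 4.21 and 3.33 CPM in bone marrow and 0.668, 0.985 and 0.852 CPM in culture. It was higher in all 3 libraries of each tissue than in any culture library, by log2 changes of 1.67 ± 0.31 in lung and 2.42 ± 0.31 in bone marrow (adjusted p = 0.000523 and 1.79e-05). Lung and bone marrow overlapped. Their difference of -0.75 ± 0.28 did not pass (adjusted p = 0.0687), and it passed with the replicate block (0.0388), on leaving out lung replicate 1 (0.0247) and on leaving out bone marrow replicate 3 (0.0257).

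The other scavenger receptor behaved differently. Mrc1 (chromosome 2, 14229392 to 14332057) encodes the mannose receptor CD206 and had 1.31, 0.848 and 0.728 CPM in lung, 1.49, 0.588 and 1.91 CPM in bone marrow and 2.12, 1.79 and 2.13 CPM in culture. Lung lay below culture in 3 of 3 libraries (log2 change -1.05 ± 0.38, adjusted p = 0.0311), a call lost without culture replicate 1 or 3 or lung replicate 2 or 3 (adjusted p between 0.0681 and 0.0984). Bone marrow spread 3.25-fold between its lowest and highest library and did not pass against culture (-0.58 ± 0.37, adjusted p = 0.188), though it did without bone marrow replicate 3 (-0.94, adjusted p = 0.0498). Lung against bone marrow gave -0.47 ± 0.38 (adjusted p = 0.395).

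AXL is a receptor tyrosine kinase that recognises dying cells through its ligand GAS6. Axl (chromosome 7, 25757273 to 25788705) had 6.13, 5.42 and 4.14 CPM in lung, 6.75, 4.89 and 4.33 CPM in bone marrow and 9.61, 9.72 and 9.38 CPM in culture. All 6 tissue libraries lay below the 3 culture libraries, with log2 changes of -0.87 ± 0.19 in lung and -0.85 ± 0.19 in bone marrow (adjusted p = 0.00179 and 0.00183). Lung and bone marrow overlapped almost fully and their difference did not pass (-0.02 ± 0.19, adjusted p = 0.947), nor did its sign hold over the alternatives.

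Slc40a1 encodes ferroportin, the only known iron exporter of mammalian cells, and it had the highest level per kilobase of the 10 genes in each group. Slc40a1 (chromosome 1, 45908068 to 45926523) had 194, 151 and 137 CPM in lung, 240, 250 and 222 CPM in bone marrow and 222, 240 and 246 CPM in culture. Every lung library was below every library of the other groups, by a log2 change of -0.56 ± 0.11 against bone marrow and -0.55 ± 0.11 against culture (adjusted p = 0.00339 and 0.000917). Bone marrow and culture overlapped, and their difference did not pass and changed sign between alternatives (0.01 ± 0.11, adjusted p = 0.95). Per kilobase of exon, Slc40a1 averaged 17.8 CPM in lung, 26.4 CPM in bone marrow and 26.2 CPM in culture, above Apoe in each group (5.38, 7.54 and 2.41 CPM).

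**Figure D2:**
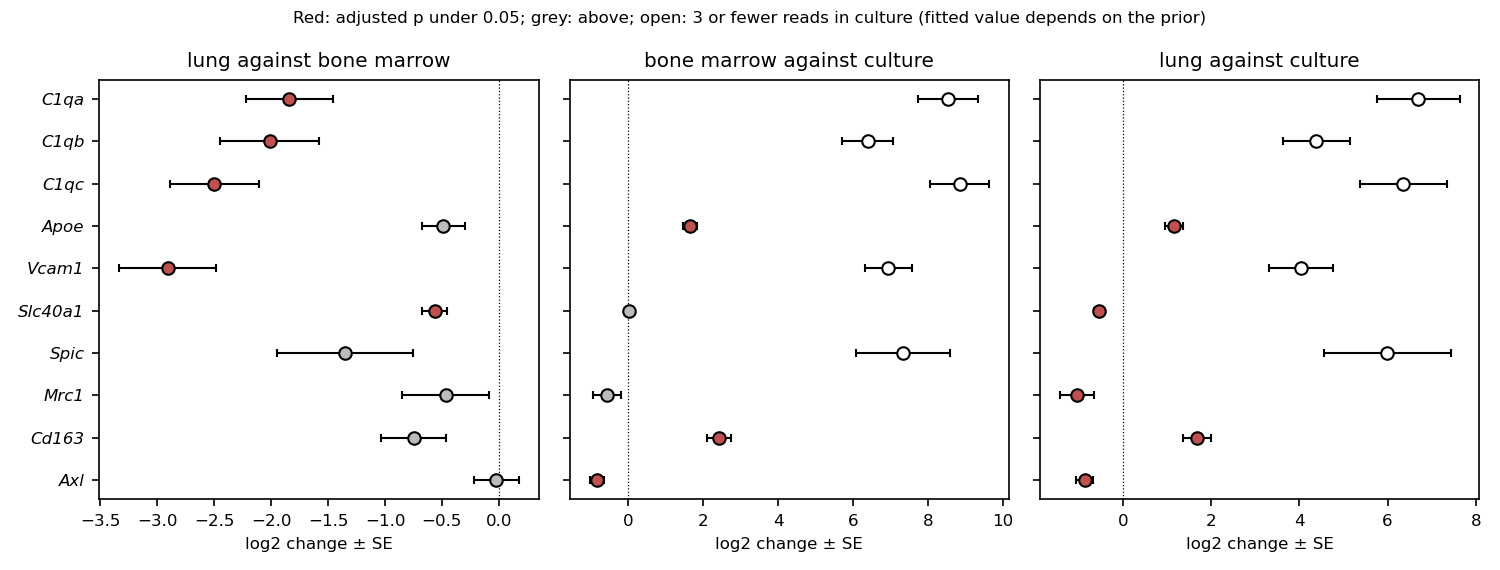
Log2 change ± SE (horizontal axes) of each of the 10 genes in the 3 comparisons (lung against bone marrow, then each tissue against culture); red marks an adjusted p under 0.05, grey a higher one, and open symbols genes with 3 or fewer culture reads, whose fitted change depends on the prior count. In lung against bone marrow Vcam1 and the C1q genes lie between -2.91 and -1.84, and Axl lies at -0.02.

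Whether the 10 genes rise and fall together was described library by library, without a test. Within bone marrow, the summed C1q level was 5.44, 4.99 and 5.84 CPM in replicates 1 to 3, a 1.17-fold range. The ratios of Apoe and Spic to it had 1.13-fold and 1.21-fold ranges. The ratio to C1q spread more for Slc40a1 (1.32-fold), Axl (1.68-fold), Vcam1 (1.78-fold), Cd163 (1.92-fold) and Mrc1 (2.78-fold). Because the C1q sum itself varied little, any gene steady over these libraries has a near-fixed ratio to it. The erythroid gene Klf1, for one, had 305, 280 and 317 CPM in these libraries. A narrow range of the ratio therefore cannot show that a gene varies together with C1q. The order of the libraries differed between genes: replicate 3 was highest for 6 of the 10 (C1qb, C1qc, Apoe, Vcam1, Spic and Mrc1), and replicate 1 for C1qa, Cd163 and Axl. In the same libraries the neutrophil sum ran from 342 to 2132 CPM, and the C1q sum did not follow that range.

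Within lung, replicate 1 was highest for 8 of the 10 genes, including Vcam1, Spic, Cd163, Slc40a1 and Axl, but replicate 3 was highest for C1qb and C1qc. The C1q sum was 1.15, 0.685 and 1.93 CPM, a 2.82-fold range, and every other gene's ratio to it spread at least as widely as that of Apoe (2.80-fold). Spic spread most (13.2-fold), on 19, 4 and 2 reads. Lung replicate 1 was also highest in the summed level of lung epithelium, endothelium, alveolar and interstitial macrophage and neutrophil lists; the part of these in the order of the members was not tested. With 3 libraries per tissue these orders are a description with no test.

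**Figure D3:**
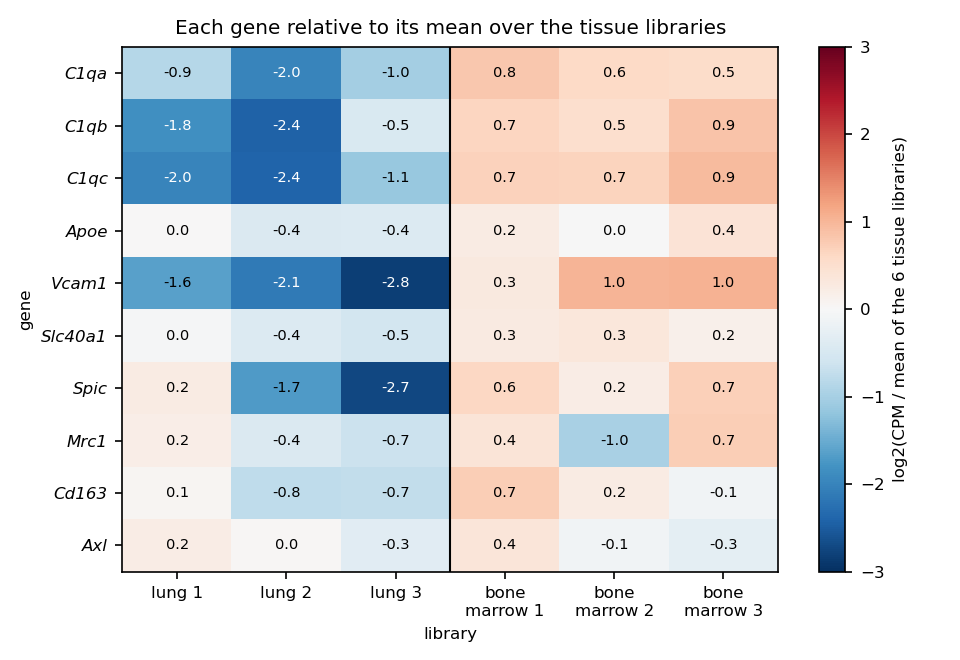
Log2 ratio of each gene's CPM to its mean over the 6 tissue libraries (colour and printed value), with genes as rows, lung libraries on the left and bone marrow libraries on the right. Vcam1 and the C1q genes are below their mean in all 3 lung libraries, while the libraries of the tissues overlap for Apoe, Mrc1, Cd163 and Axl, and Spic is low in lung replicates 2 and 3.

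A second way to compare the members is the level above the culture mean, which was defined for 7 genes higher in both tissues than in culture. The lung excess as a share of the bone marrow excess, taken from group means, was 0.275, 0.240 and 0.176 for C1qa, C1qb and C1qc, 0.125 for Vcam1 and 0.375 for Spic. It was 0.499 for Cd163 and 0.578 for Apoe. These ratios of group means thus ran from 0.125 to 0.578, and their differences were not tested. Those of Spic and the C1q genes rest on 25 to 55 reads in lung, and 19 of the 25 Spic reads are from replicate 1. The subtraction also takes the culture mean as the level of leukaemia cells in tissue, which was not tested. Apoe and Cd163 were in part present in culture already, where they had 44.9% and 31.3% of the lung level and 32.0% and 18.6% of the bone marrow level.

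Other macrophage genes did not all follow the C1q genes. Adgre1 (F4/80), a general macrophage surface marker, had 1.26, 0.522 and 1.14 CPM in lung and 0.625, 0.341 and 1.24 CPM in bone marrow, which overlapped (log2 change 0.39, adjusted p = 0.62), with 2 reads in culture. Csf1r, the receptor for the macrophage growth factor, was higher in lung, at 11.3, 5.90 and 8.26 CPM against 1.16, 1.24 and 5.02 CPM in bone marrow (log2 change 1.76, adjusted p = 0.038). Cd68, a lysosomal marker, averaged 3.57 ± 0.519 CPM in lung, 2.48 ± 0.744 CPM in bone marrow and 0.925 ± 0.346 CPM in culture, and Mertk and Fcgr1 had 36 and 5 reads in lung, 25 and 16 in bone marrow and 1 and 2 in culture, too few to be tested. Of 14 macrophage identity genes, 7 were tested in lung against bone marrow, and 3 were higher (Csf1r, Cd14 and Lgmn) and none lower, beside 14.2% higher among all genes (1 to 6 passing over the alternatives, with up to 2 lower). The list's median log2 change was 0.82, where all genes gave -0.01. The list's summed level was 43.2 to 51.4 CPM in lung, 21.7 to 29.9 CPM in bone marrow and 23.1 to 25.9 CPM in culture. Lgmn, a lysosomal protease gene and the most abundant of the list, had 21.5 to 31.4 CPM in lung, 12.7 to 16.4 CPM in bone marrow and 21.9 to 24.6 CPM in culture. Trem2 had no read in lung, and Aif1, Ms4a7 and Trem2 none in culture.

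Genes of island and red pulp macrophages differed in direction. Cd5l, a secreted scavenger-family protein of such macrophages, had 0.183 CPM in lung replicate 1 and no read in the other lung libraries, against 0.595, 0.774 and 0.746 CPM in bone marrow (log2 change -3.31, adjusted p = 0.012), and none in culture. Itgad and Timd4, which such macrophages also carry, had 3 and 1 reads in lung, 56 and 20 in bone marrow and 6 and 0 in culture, too few to pass the filter on low counts. Treml4 and Hpgd moved the other way between the tissues, with log2 changes of 1.41 and 2.43 (adjusted p = 0.023 and 0.0024). Of 14 genes in that list 10 were tested, and 2 were higher and 1 lower in lung against bone marrow, shares near those of all genes (14.2% and 11.1%), with a median log2 change of -0.0029. The tested genes include Epor, Maea, Dnase2a and Hmox1, which averaged 131, 168, 45.2 and 15.4 CPM in culture. The median thus rests in part on genes that cultured cells have, and Itgad and Timd4 are not in it. In that list against culture, 6 were higher and 1 lower in lung (all genes 27.9% and 27%), and 6 higher and 2 lower in bone marrow (all genes 30.7% and 29.8%).

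In the rest of the complement pathway 12 of 16 listed genes were tested, with 5 higher and 3 lower in lung against bone marrow (all genes 14.2% and 11.1%; median log2 change 0.78; 2 to 9 passing over the alternatives). C3, the central complement component, had 2.38, 0.913 and 1.20 CPM in lung and 3.39, 4.37 and 22.6 CPM in bone marrow (log2 change -2.74, adjusted p = 0.036), highest in bone marrow replicate 3, where the neutrophil list was highest too. The receptor gene C3ar1 was higher in lung (log2 change 2.62, adjusted p = 0.001). Calr, the calreticulin gene, was the most abundant of the list, at 633 to 712 CPM in lung, 579 to 601 CPM in bone marrow and 376 to 403 CPM in culture. C1s1, a protease that C1q carries, was highest in culture, at 4.37 to 4.93 CPM, against 0.555 to 0.786 CPM in lung and 0.186 to 0.398 CPM in bone marrow. In that list 10 genes were higher and 1 lower in lung against culture (all genes 27.9% and 27%), and 9 higher and 1 lower in bone marrow against culture (all genes 30.7% and 29.8%).

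Several iron recycling partners of ferroportin were abundant in cultured cells, and others were near absent there. Of 13 listed genes 12 were tested, and 1 was lower and 0 higher in lung against bone marrow, near the 11.1% lower of all genes (14.2% higher; median log2 change 0.02; 1 to 4 passing over the alternatives). The lower one was Blvra, which encodes a biliverdin reductase, at 44.0 to 54.6 CPM in lung and 61.1 to 80.2 CPM in bone marrow (log2 change -0.50, adjusted p = 0.006). Haem oxygenase (Hmox1) had 6.73, 11.8 and 15.2 CPM in lung, 16.1, 15.9 and 12.1 CPM in bone marrow and between 14.6 and 16.6 CPM in culture, and passed in no comparison. The ferritin heavy chain gene Fth1 lay between 1684 and 2170 CPM in all libraries. Against culture, 3 of the list were higher and 3 lower in lung (all genes 27.9% and 27%). In bone marrow 4 were higher and 4 lower (all genes 30.7% and 29.8%). Hfe, Slc11a1 and Trf were among the higher ones in both tissues, and averaged 0.470, 0.172 and 0.0237 CPM in culture.

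Of 13 genes for the uptake of dying cells, 9 were tested and 5 were higher and 0 lower in lung against bone marrow (all genes 14.2% and 11.1%; median log2 change 0.55; 3 to 8 passing over the alternatives). Cd36, a scavenger receptor of macrophages and endothelium, was among them at 14.3, 5.97 and 5.63 CPM in lung and 1.49 to 1.58 CPM in bone marrow (log2 change 2.50, adjusted p = 0.000267). Tyro3, the relative of Axl, was highest in culture as Axl was, at 10.1 to 11.7 CPM, against 1.37 to 1.52 CPM in lung and 0.619 to 1.04 CPM in bone marrow. Pros1, which encodes protein S, a ligand of the AXL family, had 13.9, 16.4 and 10.6 CPM in lung and 7.26, 7.31 and 5.72 CPM in bone marrow (log2 change 1.01, adjusted p = 0.0012).

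Of 13 apolipoprotein and cholesterol efflux genes 10 were tested. In lung against bone marrow 3 were higher and 0 lower (all genes 14.2% and 11.1%; median log2 change -0.01), and in bone marrow against culture 2 were higher and 6 lower (all genes 30.7% and 29.8%; median -0.55). Nr1h2, which encodes the sterol sensor LXRβ, had 68.3 to 73.1 CPM in lung and 43.7 to 50.9 CPM in bone marrow (log2 change 0.59, adjusted p = 0.00035). Apoc2 and Apoc4, neighbours of Apoe in its gene cluster, had no read in any library, and Apoc1 had 2 in lung, 9 in bone marrow and 0 in culture.

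Of 14 transcription factors and regulators of macrophage identity 12 were tested, with 5 higher and 1 lower in lung against bone marrow (all genes 14.2% and 11.1%; median log2 change 0.17; 3 to 6 passing over the alternatives). Spi1, which encodes PU.1, had 11.87, 17.97 and 11.80 CPM in lung, 7.56, 9.72 and 14.3 CPM in bone marrow and 4.56, 4.15 and 3.09 CPM in culture. Both tissues were higher than culture, with log2 changes of 1.82 in lung and 1.42 in bone marrow (adjusted p = 8.05e-05 and 0.00043), while the tissues overlapped. Nr4a1, an immediate-early nuclear receptor gene, had 29.5, 29.7 and 51.0 CPM in lung, against 2.35, 2.60 and 2.26 CPM in bone marrow (log2 change 3.93, adjusted p = 1.31e-07). Cebpb was higher too in lung than in bone marrow (log2 change 1.71, adjusted p = 0.027), and Id3 was lower (log2 change -0.62, adjusted p = 0.023). In culture Nr4a1 had 14.8 to 17.3 CPM, between the tissues. Cebpb and Id3 had their highest mean in culture. Cebpb averaged 23.7 CPM there, 7.90 CPM in lung and 2.36 CPM in bone marrow, and Id3 11.4, 5.73 and 8.78 CPM. Against culture, 6 of the list were higher and 5 lower in lung (all genes 27.9% and 27%). In bone marrow 4 were higher and 5 lower (all genes 30.7% and 29.8%).

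Markers of other cells also differed between the groups, in several directions, and their part in the results was not tested. Alveolar macrophage genes summed to 17.8, 11.3 and 12.8 CPM in lung and 9.17 to 10.5 CPM in bone marrow and 7.66 to 12.0 CPM in culture, with Abcg1 the most abundant in each group (6.92 to 7.94 CPM in lung and 6.36 to 8.86 CPM in bone marrow). In culture Abcg1 averaged 9.20 of 9.97 CPM. Of 7 genes tested, 3 were higher and 0 lower in lung against bone marrow (all genes 14.2% and 11.1%). Against culture, 4 were higher and 0 lower in lung (all genes 27.9% and 27%), and 2 higher and 0 lower in bone marrow (all genes 30.7% and 29.8%). Of the 13 genes, 4 had no read in bone marrow and 6 none in culture; among those absent from both, Car4 had 1.68, 0.946 and 1.11 CPM in lung and Marco 0.262, 0.131 and 0.0316 CPM. Interstitial macrophage genes summed to 41.8, 19.2 and 33.6 CPM in lung, 6.01, 6.88 and 27.1 CPM in bone marrow and 1.85 to 2.13 CPM in culture. Of the 11 genes, 4 had no read in culture and each was read in both tissues. Most of this sum was Cd74, a gene of MHC class II antigen presentation. It averaged 19.8 of 31.5 CPM in lung, 7.07 of 13.3 CPM in bone marrow and 1.63 of 1.94 CPM in culture. Monocyte genes summed to 95.2, 38.2 and 51.2 CPM in lung, 34.1, 69.7 and 332 CPM in bone marrow and at most 19.3 CPM in culture. Single genes carried much of this sum. Lyz2 averaged 32.4 CPM in lung, 126 CPM in bone marrow and 0.314 CPM in culture, and Fn1 4.86, 2.52 and 17.8 CPM. Lung epithelium genes summed to 88.8, 42.1 and 17.4 CPM in lung, 2.08 to 4.23 CPM in bone marrow and 4.31 to 4.69 CPM in culture, and the surfactant gene Sftpc alone had 35.9, 8.25 and 10.9 CPM in lung and 2 reads in bone marrow.

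Endothelium and stroma, which also use Vcam1, need a gene-by-gene account, because their sums are carried by a few genes that cultured cells have. Endothelium genes summed to 204 to 237 CPM in lung, 159 to 191 CPM in bone marrow and 294 to 331 CPM in culture. Of this, Calcrl and Egfl7 averaged 67.1 and 119 CPM in lung, 38.7 and 124 CPM in bone marrow and 193 and 111 CPM in culture. Of the 10 tested, 8 were higher and 0 lower in lung against bone marrow (all genes 14.2% and 11.1%; median log2 change 4.36), and 8 were higher and 1 lower in lung against culture (all genes 27.9% and 27%). In bone marrow against culture 1 was higher and 2 lower (all genes 30.7% and 29.8%). The junction gene Cdh5 had 3.30, 0.946 and 0.664 CPM in lung, at most 0.0619 CPM in bone marrow and at most 0.0615 CPM in culture. Pecam1 (CD31) had 9.72, 3.07 and 2.82 CPM in lung, 0.595, 0.341 and 0.945 CPM in bone marrow and 0.111 to 0.142 CPM in culture. Stroma genes summed to 183 to 269 CPM in lung, 142 to 214 CPM in bone marrow and 239 to 256 CPM in culture, with the collagen gene Col1a2 averaging 179 CPM in lung, 131 CPM in bone marrow and 217 CPM in culture. Cxcl12, a chemokine of marrow stroma, had 0.602, 0.359 and 0.538 CPM in lung, 0.922, 1.24 and 0.348 CPM in bone marrow and no read in culture, and the mural cell receptor gene Pdgfrb averaged 1.66 CPM in lung, 1.25 CPM in bone marrow and 0.0947 CPM in culture.

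**Figure D4:**
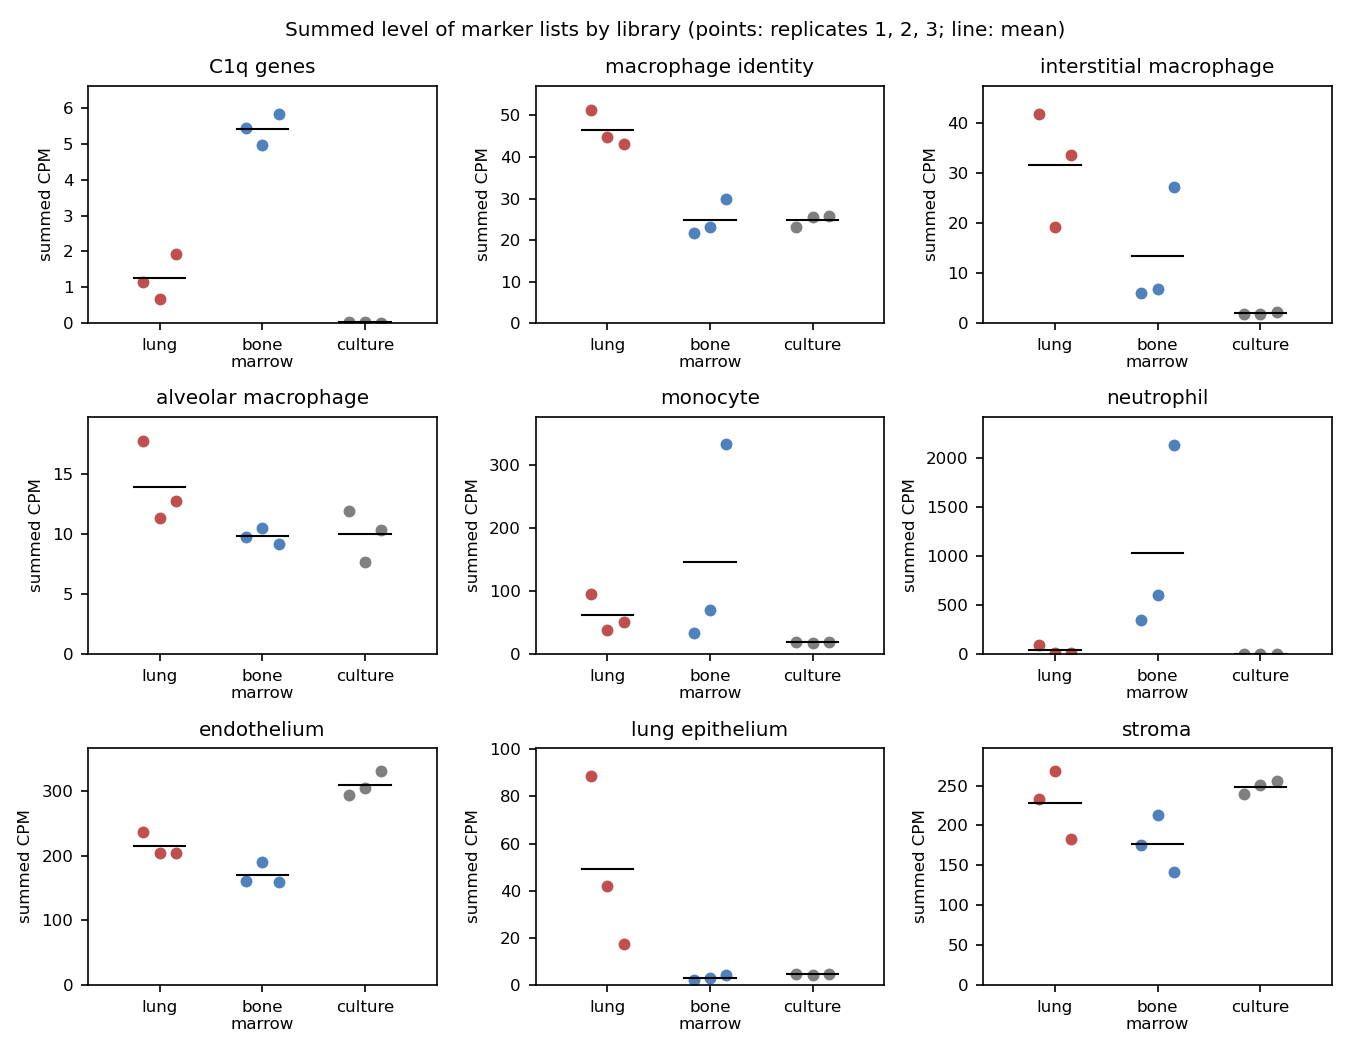
Summed CPM (vertical axes, linear, each with its own scale) of the C1q genes and of 8 marker lists in the lung, bone marrow and culture libraries; points are replicates 1, 2 and 3 from left to right and lines are means. The C1q sum is highest in the 3 bone marrow libraries (4.99 to 5.84 CPM) while the macrophage identity and interstitial macrophage sums have their highest mean in lung. Those 2 sums are mostly Lgmn (mean 25.9 CPM in lung and 23.5 CPM in culture) and Cd74 (19.8 and 1.63 CPM). In bone marrow and culture the alveolar macrophage sum is mostly Abcg1 and the lung epithelium sum mostly Napsa. The monocyte sum is mostly Lyz2 in bone marrow and Fn1 in culture. The endothelium and stroma sums are carried by Calcrl, Egfl7 and Col1a2, which cultured cells have.

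The genes whose profile over the 6 tissue libraries lay closest to that of the C1q genes were mostly unnamed transcripts. Likeness was the root mean square distance between centred log2(CPM + 0.5) profiles, among 10048 genes that reached 5 CPM in a tissue library. The closest 8 were Gm49747, BC030343, B230208H11Rik, Gm15559, Gm44777, A130014A01Rik, Gm29666 and A530088E08Rik, at distances of 0.147 to 0.254, where the median over these genes was 0.724. Gm49747 had 2.72, 2.28 and 2.94 CPM in lung and 7.17, 6.04 and 6.41 CPM in bone marrow. All 8 were also read in every culture library, at between 0.923 and 4.64 CPM. The measure depends on the pseudocount, and only 1 of the 8 remained among the closest with a pseudocount of 2. Among the members themselves, distances from the C1q profile were 0.481 for Slc40a1, 0.491 for Spic, 0.499 for Apoe, 0.510 for Cd163, 0.585 for Vcam1, 0.679 for Mrc1 and 0.756 for Axl. These distances depend on the pseudocount too. At 0.5 it exceeds most C1q values in lung and flattens their profile, while abundant genes such as Slc40a1 hardly change. Their order is therefore no ranking of likeness. In lung against bone marrow the log2 change was -0.56 for Slc40a1, -2.91 for Vcam1 and between -2.50 and -1.84 for the C1q genes.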

How the data were processed

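The 9 RNA-seq libraries were made from total RNA with the RNeasy Plus Micro, SMART-seq v4 and ThruPLEX kits, per the labels' protocols. Per the submitters' processing notes, bcl2fastq and STAR were run and the build was mm10, while versions, counting tool and annotation were not given in the sources used here. The authors deposited whole-number counts of reads for each gene symbol, not normalized. Coordinates and exon lengths are from GENCODE M21 (GRCm38).

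The filterByExpr filter left 15066 genes, with 99.9% or more of the reads in every library. All 9 libraries were scaled with TMM and fitted in edgeR 4.0.16 (quasi-likelihood, robust; R 4.3.3), with each comparison as a contrast and Benjamini-Hochberg adjustment over all genes tested (threshold 0.05). The code was tested on simulated counts with known changes. Alternatives used other scalings and filters, DESeq2 1.42.0, limma-voom (limma 3.58.1), the 6 libraries of each comparison, a replicate block and each library left out.

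The labels name no separate mice or cultures, so p-values measure the spread between these libraries, which may be technical. No libraries were duplicates by a chi-square test of their counts (at least 3.92 per degree of freedom). The deviations of same-numbered lung and bone marrow libraries from their group means correlated at 0.12, 0.36 and 0.13 (other numbers -0.29 to 0.11), so these numbers were taken as pairs from the data, not the labels. The evidence for such pairs is weak: lung replicate 1 gave 0.122 with bone marrow replicate 1 and 0.113 with bone marrow replicate 3. The main test had no replicate block, so calls that rest on the pairs are given as alternatives. Culture libraries did not pair (-0.07 to 0.001).

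The members and lists were chosen with earlier results of these data known. Named genes are the members, Trp53, 5 defining macrophage markers, the 8 closest profiles and, from each other list, up to 2 passing genes per direction with the largest log2 change at 5 CPM or more, or else the most abundant gene. Not every gene this allows is described, and some list members are not reported here. Cd14, Trem2, Aif1, Ms4a7, Cd5l, Itgad, Timd4, Treml4, Hpgd, C3ar1, C1s1, Hmox1, Fth1, Hfe, Slc11a1, Apoc1, Apoc2, Apoc4, Car4, Marco, Napsa, Scgb1a1, Cdh5, Egfl7, Cxcl12, Pdgfrb, H2-Aa and Trf lie outside that rule and were chosen after their values were seen, as were the lineage genes that check the cell type.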

Additional observations from a re-analysis of the deposited data

Results flagged for a closer look

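For 5 of the 10 genes the change from culture differed between lung and bone marrow by the test of that difference itself, which is the contrast of the tissues since both share the culture libraries. The change in lung minus that in bone marrow was -1.84 for C1qa, -2.01 for C1qb, -2.50 for C1qc and -2.91 for Vcam1 on the log2 scale, for genes higher than culture in both tissues. For Slc40a1 it was -0.56, with lung below culture and bone marrow not passing against it.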

How the results depend on the processing

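In lung against bone marrow between 5 and 8 of the 10 genes passed over 19 alternatives, all lower in lung. The count was 8 with the replicate block in the 6 tissue libraries alone (an alternative added after seeing the data; Apoe, Cd163 and Spic passed too) and 7 with the replicate block over all 9 libraries, which added Apoe and Cd163 (adjusted p = 0.0371 and 0.0388) and changed no other call of the 10 genes in any comparison. Leaving out each library gave 5 to 8 in lung against bone marrow, the highest without lung replicate 1, 8 to 9 in bone marrow against culture and 9 to 10 in lung against culture. With the 6 libraries compared alone 6 genes passed in lung against culture, since only 6 passed the filter there. Calls for C1qa, C1qb, C1qc, Vcam1 and Slc40a1 in lung against bone marrow held in all 19 alternatives. The sign of results that never passed reversed in 6 cases: Slc40a1 in bone marrow against culture, at -0.0050 with DESeq2 and between -0.052 (without culture replicate 1) and 0.056 on leaving out 1 library, and Axl in lung against bone marrow, at 0.056 with limma-voom and between -0.17 and 0.18 (without bone marrow replicate 1) on leaving out 1 library. Leaving out bone marrow replicate 2 (-0.030, Slc40a1) and lung replicate 3 (0.11, Axl) reversed the sign as well. The cause was not tested. Of all genes tested, 3806 passed between lung and bone marrow, 2381 with these 6 libraries alone, 2414 on leaving out lung replicate 2 and 2473 on leaving out bone marrow replicate 2. Depth limits Spic and the C1q genes most, with 25 to 55 reads in the 3 lung libraries. Without a filter, Apoe and Cd163 passed too (7 genes).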

Other observations

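Genes of antigen presentation and iron transport outside the 10 members were also read in the tissue libraries. Cd74, the invariant chain of MHC class II, had 23.4, 11.4 and 24.6 CPM in lung, 3.33, 3.93 and 13.9 CPM in bone marrow and 1.48 to 1.85 CPM in culture, and H2-Aa, a class II chain, had 4.43, 1.76 and 4.24 CPM in lung, 0.446, 0.496 and 2.71 CPM in bone marrow and at most 0.0308 CPM in culture. Both overlapped between lung and bone marrow and neither passed there (adjusted p = 0.085 and 0.12). Trf, which encodes the iron carrier transferrin, had 3.38, 0.685 and 1.58 CPM in lung, 2.71, 2.42 and 4.95 CPM in bone marrow and 2 reads in culture (adjusted p = 0.27 in lung against bone marrow). These genes were chosen after their values were seen.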
